A study of Mus musculus with 6 samples.

Results

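Transcripts of heme synthesis and iron handling were measured in subcutaneous white fat of mice on Affymetrix arrays. The 9 genes were 7 enzymes that make heme (Alas1, Alas2, Uros, Urod, Cpox, Ppox and Fech), the transferrin receptor gene Tfrc and the heme oxygenase gene Hmox1. They were taken by gene symbol from the platform's annotation, which gave 17 probe sets with 1 of these symbols alone out of 22690 probe sets, and all 9 genes were among the 12393 tested, with no filter on dim probe sets. Each gene is represented by its brightest probe set, and the others are given beside it.

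YY1bKO mice were Yy1 flox/flox and also carried Ucp1Cre, a Cre recombinase under Ucp1 regulatory sequences. Yy1 encodes the transcription factor YY1. Control mice were Yy1 flox/flox, with no Cre named in the labels. All were aged 8 weeks, on a mixed C57BL6 and 129 background, after 2 weeks of high fat feeding. Each group had 3 arrays, and so few arrays limit precision throughout. The labels do not say that replicates were separate animals, so a p-value here covers the spread among these arrays alone, which may be technical. Ucp1 regulatory sequences act mainly in thermogenic adipocytes, which lie in this depot and in brown fat. The share of cells with the deletion was not measured. No Cre-only group is named in the labels, and Cre itself and loss of YY1 cannot be told apart.

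Heme is an iron-containing ring that carries electrons in the cytochromes of the respiratory chain and oxygen in hemoglobin. ALAS1 and ALAS2 catalyse the same first and rate-controlling step in mitochondria: ALAS1 serves all tissues, while ALAS2 is the form of developing red cells. UROS, UROD, CPOX and PPOX then build protoporphyrin, into which ferrochelatase, FECH, inserts iron. Iron enters cells on transferrin through the transferrin receptor, and heme oxygenase 1, HMOX1, opens the ring again when heme is broken down. Brown and beige adipocytes are rich in mitochondria and cytochromes, and so have a high demand for heme.

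The regions before the start sites of Alas1 and Alas2 are shown because the results turn on these 2 genes of 1 reaction. The letters come from RefSeq on build GRCm38.p6. Windows were taken for 7 of the 9 genes, and not for Fech or Hmox1. The search for these windows left out 1 chromosome, so a missing window does not show that a gene is absent from RefSeq. Capitals mark letters of a motif searched on both strands. The motifs were the GATA factor motif AGATAA, the TATA box motif TATAAA, the box CACCC that KLF factors bind, the E box CACGTG, the YY1 motif AAGATGGC and the palindromic NRF1 motif whose letters are the capitals of the last line shown. Each line gives the 250 bases before the start, 5′ to 3′ on the strand of the gene, for Alas1 at chr9:106247955-106248204 (minus strand, outer start site) and for Alas2 at chrX:150547167-150547416 (plus strand).
Alas1: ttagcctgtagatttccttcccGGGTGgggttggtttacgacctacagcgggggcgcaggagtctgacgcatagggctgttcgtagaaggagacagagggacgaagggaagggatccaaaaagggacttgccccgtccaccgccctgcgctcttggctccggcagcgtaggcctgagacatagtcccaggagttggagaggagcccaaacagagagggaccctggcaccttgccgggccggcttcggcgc
Alas2: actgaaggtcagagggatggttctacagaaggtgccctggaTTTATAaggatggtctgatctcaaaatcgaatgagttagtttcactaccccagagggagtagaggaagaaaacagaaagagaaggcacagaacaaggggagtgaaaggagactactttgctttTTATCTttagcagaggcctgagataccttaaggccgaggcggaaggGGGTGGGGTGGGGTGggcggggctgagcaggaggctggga
All matches in both windows lay on the opposite strand. The Alas2 window held the GATA letters at 86 bases before the start, the TATA letters at 209 bases and 3 adjoining CACCC boxes at 40, 35 and 30 bases, while the Alas1 window held 1 CACCC box. Of 32851 windows of the same length in the RefSeq table, 9.99% held the GATA motif, 12.4% the TATA box motif, 52.0% the CACCC box, 6.02% the E box and 1.56% the YY1 motif. A second annotated Alas1 start site, closer to the gene body, had the NRF1 letters, which 0.782% of windows held, at 195 bases before it (chr9:106247906-106247935, minus strand; 30 bases shown with those letters in capitals).
Alas1 inner start site: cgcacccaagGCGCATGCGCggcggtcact
The 6 motifs were chosen with the results known, the NRF1 spelling after the sequence was seen. A match describes the letters and not a bound site.

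None of the 9 genes passed an adjusted p of 0.05 in YY1bKO fat against control fat (limma, Benjamini-Hochberg over 12393 genes; adjusted p from 0.291 to 0.840). Of all genes 0.0323% passed as higher and 0% as lower. All 7 enzymes and Hmox1 had higher means in YY1bKO, and Tfrc a lower one. At an unadjusted p under 0.05 by limma, 4 of the 9 were higher (Uros, Fech, Alas2 and Alas1), where 8.43% of all genes were, and 1 was lower (Tfrc), where 1.99% were. The count of 4 was 1 without YY1bKO replicate 1, 2 without YY1bKO replicate 2, YY1bKO replicate 3 or control replicate 3, and 1 without control replicate 2 and YY1bKO replicate 1 together. Alas1, with an unadjusted limma p of 0.048, was under 0.05 in 8 of 18 alternatives. The arrays of the groups did not overlap for 3 of the 9 in the higher direction, against 11.5% of all genes, and for 1 in the lower direction, against 5% of all genes. The median log2 difference of the 9 was 0.40, beside 0.00 for all genes. Log2 differences are on the log2(intensity + 1) scale, YY1bKO minus control, and understate the change of low genes.

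**Figure D1:**
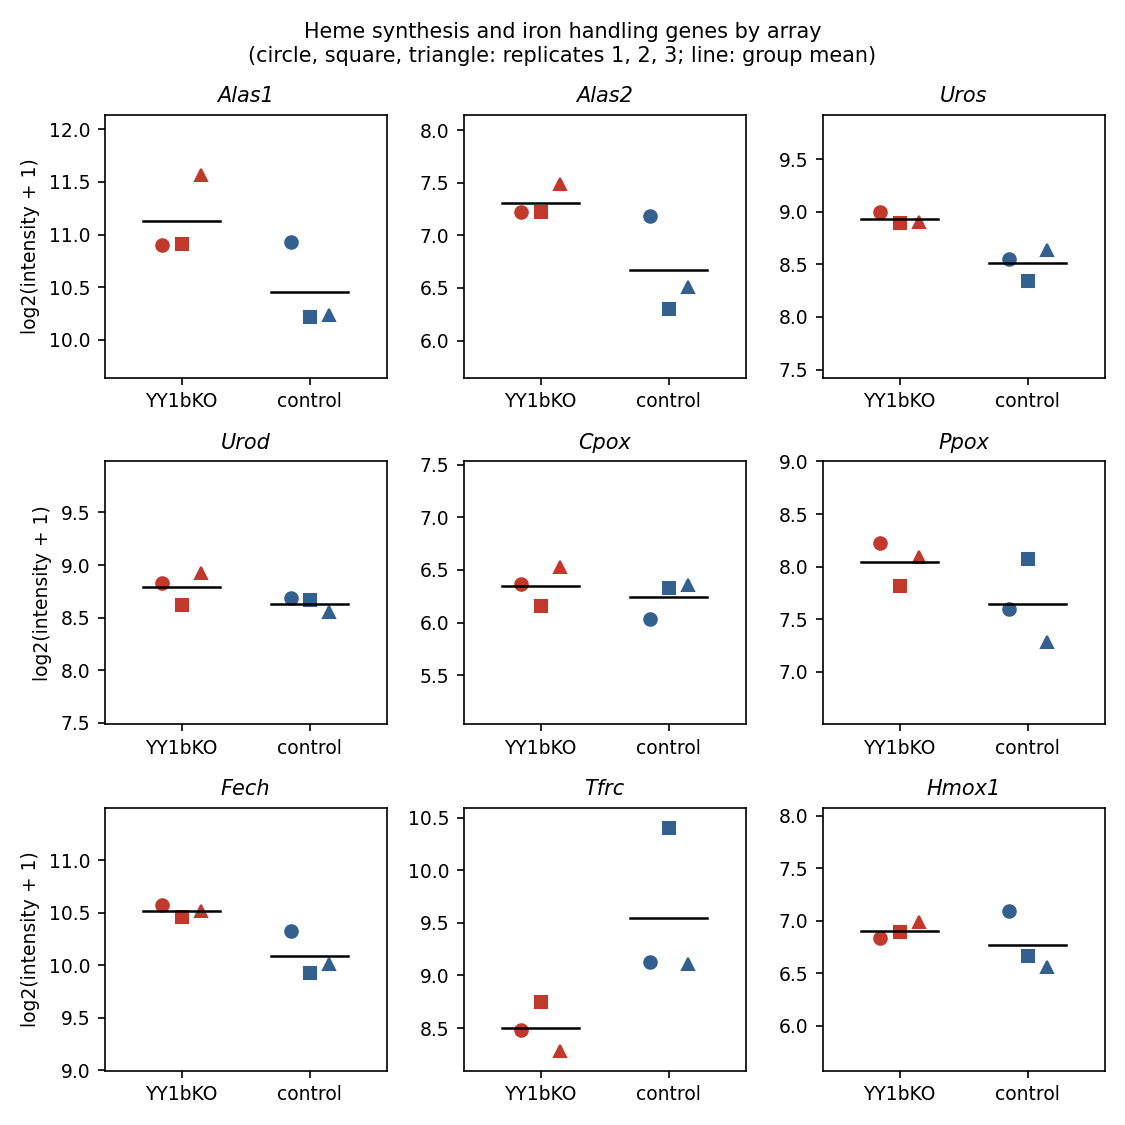
Level of each of the 9 genes on the log2(intensity + 1) scale in the 3 YY1bKO arrays (red, left) and the 3 control arrays (blue, right), with group means as lines and an axis span that is equal in all panels. The groups do not overlap for Alas2, Uros, Fech and Tfrc, and control replicate 2 stands highest for Tfrc.

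Across the whole series, array medians of intensity ran from 123.15 to 130.35 and lower quartiles from 29.9 to 31.7. The targeted gene Yy1 had intensities of 1118, 1358 and 1179 in YY1bKO and of 1288, 1470 and 1568 in control, with overlapping groups (limma adjusted p = 0.575). Ucp1, the uncoupling protein of thermogenic adipocytes, was at 1610, 2062 and 1929 in YY1bKO and at 42.1 to 51.5 in control. Yy1 probe sets may lie outside the deleted part, which limits this check. Arrays that stood apart were YY1bKO replicate 1 in skeletal muscle genes (a summed intensity of 4772 over 11 genes, against 599.8 to 1903 in the other 5 arrays) and control replicate 2 in skin and mammary epithelium genes (10936 over 12 genes, against 352 to 586). White adipocyte genes were present in every array, with sums over 11 of 13 listed genes from 85382 to 94343 in YY1bKO and from 67513 to 88138 in control.

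Alas1, the form of the first enzyme that serves all tissues, had intensities of 1912, 1925 and 3024 in YY1bKO and of 1946, 1186 and 1201 in control. Control replicate 1 was as high as YY1bKO replicates 1 and 2, and YY1bKO replicate 3 was the one array above all others. The log2 difference was 0.67 ± 0.27 (SE, n = 3 each; 95% confidence interval 0.01 to 1.33), a 1.59-fold higher level (limma adjusted p = 0.472). By exact permutation of the arrays, 2-sided, p was 0.3, and 0.1 is the smallest that 3 against 3 arrays allow. The other Alas1 probe set differed by 0.49 ± 0.23. Without YY1bKO replicate 3 the Alas1 difference was 0.45, and without control replicate 1 it was 0.90. In bulk tissue, a changed number of cells of a type and a changed amount of RNA per cell cannot be told apart.

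Alas2, the red cell form, had intensities of 148.5, 147.9 and 178.5 in YY1bKO and of 144.4, 78.0 and 90.2 in control. The groups did not overlap, but by a small margin, since control replicate 1 lay just under the lowest YY1bKO array. Its log2 difference was 0.64 ± 0.24 (SE, n = 3 each; interval 0.06 to 1.23; limma adjusted p = 0.439; exact permutation p = 0.1). Alas1 and Alas2 thus differed between the groups by nearly the same amount, and control replicate 1 was the highest control array for both. The log2 difference of Alas1 minus that of Alas2 was 0.02 ± 0.14 (SE, n = 3 each; exact 2-sided permutation p = 1). Without control replicate 1 the Alas2 difference was 0.90, and without control replicate 2 it was 0.46.

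Red cell content was read from hemoglobin, the main protein of red cells, and from other erythroid genes. A probe set annotated to 4 adult beta globin genes together had intensities of 14199, 15010 and 15435 in YY1bKO and of 15187, 7863 and 12295 in control. Control replicate 1 lay within the range of the YY1bKO arrays and control replicate 2 lowest, and the control arrays had the same order for Alas2. The log2 difference of this probe set was 0.39 ± 0.24 (SE; limma adjusted p = 0.680 over 22626 probe sets). The 3 probe sets annotated to both Hba-a1 and Hba-a2, the adult alpha globin genes, had log2 differences of 0.33 ± 0.20, 0.42 ± 0.22 and 1.03 ± 0.46, with adjusted p of 0.673, 0.631 and 0.558. The groups overlapped in all but the last of these, in which YY1bKO replicate 1 stood highest, at 4725, and control replicate 2 lowest, at 788. Probe sets shared by several genes cannot be assigned to 1 of them, and their use here was chosen after the values were seen. Their part in the Alas2 difference was not tested.

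Of 24 erythroid genes listed, 17 were measured by a probe set of their own, with a median log2 difference of 0.01, and 10 were higher and 7 lower. Of the 17, 5 lay below the lower quartile of intensity in all arrays, and others lay just above it, so they could show little. None passed the adjusted threshold by limma. Unadjusted p was under 0.05 for 3 higher genes, Alas2 among them, and for 1 lower gene, against 8.43% and 1.99% of all genes. Hbb-b2, an adult beta globin, had 223, 232 and 230.0 in YY1bKO and 200.2, 180.5 and 176 in control, a log2 difference of 0.30 ± 0.09 (limma adjusted p = 0.339). Its other probe set differed by 0.44 ± 0.50, with overlapping groups. Hba-a2 was lower, by -0.42 (adjusted p = 0.460), at 17.9 to 20.8 in YY1bKO and 22.7 to 33.4 in control. Most of those values lie below the lower quartile of intensity. Slc4a1, the red cell anion exchanger (0.05), Epb42, a protein of the red cell membrane skeleton (-0.05), and Hba-a1 by its own probe set (0.01) had values from 19.5 to 33.6 in all 6 arrays. Summed intensity of the list ran from 1313 to 1377 in YY1bKO and from 1181 to 2820 in control, with Car2, a carbonic anhydrase not limited to red cells, at 1885 in control replicate 2.

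**Figure D2:**
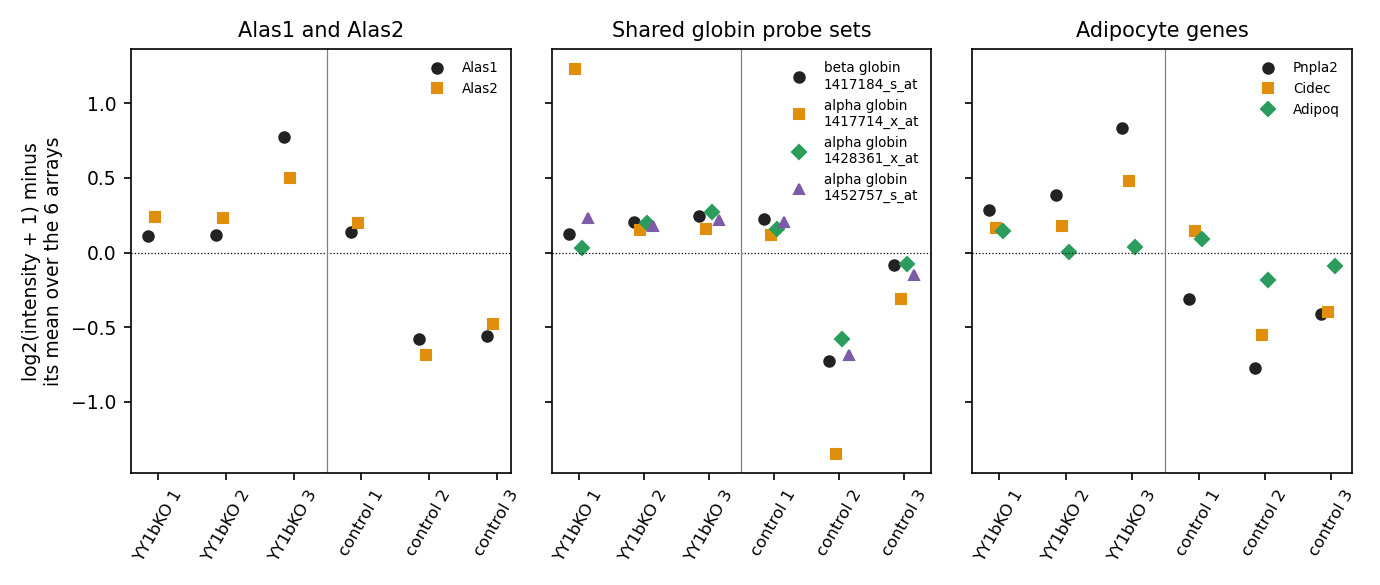
Log2(intensity + 1) of single probe sets minus their mean over the 6 arrays, for Alas1 and Alas2 (left), the 4 probe sets shared by adult globin genes (middle) and 3 adipocyte genes (right), with YY1bKO arrays left of control arrays in each panel. Control replicate 1 lies with the YY1bKO arrays for Alas1, Alas2, the globin probe sets and Cidec, and control replicate 2 is lowest for the globin probe sets.

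The profiles most like those of Alas1 and Alas2 were ranked by the root mean square distance between centred log2 values over the 6 arrays, among 9579 genes. Closest to Alas1 were Akr1c14, an aldo-keto reductase (0.07), Tinagl1 (0.07) and Pcsk5, a proprotein convertase (0.10), and Alas2 was at rank 11 (0.14). Closest to Alas2 were Mfap5, a microfibril protein (0.05), Dhrs7b (0.07) and Car5b, a mitochondrial carbonic anhydrase (0.07), and Alas1 was at rank 73. Cidec, a lipid droplet protein of adipocytes singled out after its value was seen, was at rank 10 for Alas1 and rank 4 for Alas2. Hbb-b2, by its own probe set, was at rank 1157 and rank 1150. The far brighter probe sets shared by several globin genes were not ranked, so these ranks do not set adipocyte genes against globin. Other adipocyte genes were farther, with Pnpla2, a triglyceride lipase, at rank 235 for Alas1 and rank 786 for Alas2, and Ucp1 at rank 9550 and rank 9549. Among the other enzymes, Fech was at rank 435 and rank 274, and Uros at rank 1476 and rank 1143. Cidec had intensities of 8837, 8909 and 10981 in YY1bKO and of 8715, 5375 and 5977 in control, the pattern of Alas2 with control replicate 1 near the YY1bKO arrays. These distances describe 6 arrays that share the same 2 groups and carry no test.

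Uros, uroporphyrinogen III synthase, which closes the ring, had the smallest p of the 9 genes. Its intensities were 510, 474 and 476 in YY1bKO and 373, 324 and 398 in control, so the groups were clearly apart. The log2 difference was 0.42 ± 0.11 (SE, n = 3 each; interval 0.16 to 0.68; limma adjusted p = 0.291), a 1.34-fold higher level. Urod, the decarboxylase of the next step, had 453, 393 and 484 in YY1bKO and 410, 406 and 374 in control, with overlapping groups and a difference of 0.16 ± 0.11 (adjusted p = 0.703). Without YY1bKO replicate 3 it was 0.09, and without YY1bKO replicate 2 it was 0.24. Cpox, coproporphyrinogen oxidase, was dim, at 70.4 to 91.3 in YY1bKO and 64.7 to 80.9 in control. Its difference was 0.11 ± 0.14 (adjusted p = 0.840), and its other probe set differed by -0.06. Leaving out 1 array moved it between 0.0075 (without control replicate 1) and 0.21 (without YY1bKO replicate 2).

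Ppox, protoporphyrinogen oxidase, had intensities of 298, 225 and 272 in YY1bKO and of 192.5, 268.0 and 154.5 in control. Control replicate 2 lay among the YY1bKO arrays and the other 2 control arrays lay below them. The difference was 0.40 ± 0.22 (SE; limma adjusted p = 0.618), and a second, dim Ppox probe set, with a control mean of 31.1, differed by -0.23 ± 0.14. Without control replicate 2 the Ppox difference was 0.61, without control replicate 3 it was 0.21, and with the mean of both probe sets it was 0.08.

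Fech, ferrochelatase, whose protein itself holds an iron-sulfur cluster in mammals, had intensities of 1519, 1405 and 1467 in YY1bKO and of 1286, 972 and 1030 in control. Every YY1bKO array lay above every control array, and control replicate 1 was again the highest control array. The difference was 0.43 ± 0.13 (SE, n = 3 each; interval 0.11 to 0.74; limma adjusted p = 0.339). The other 3 Fech probe sets differed by 0.44 ± 0.17, 0.28 ± 0.26 and 0.02 ± 0.12, the last of them dim, with a control mean of 46.0. In these 3 the groups overlapped.

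**Figure D3:**
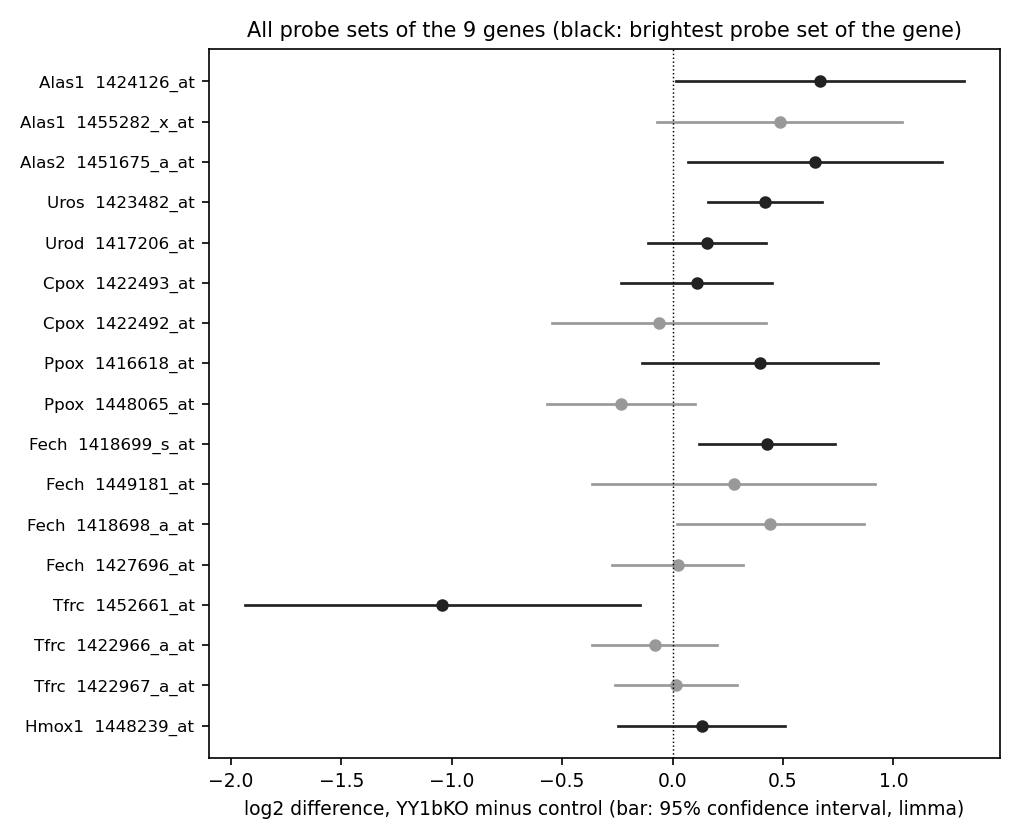
Log2 difference (YY1bKO minus control) of each of the 17 probe sets of the 9 genes with its 95% confidence interval from limma, black for the brightest probe set of a gene and grey for the others. The brightest probe sets of Alas1, Alas2, Uros, Fech and Tfrc have intervals that do not reach 0 before adjustment, while dim probe sets of Cpox, Ppox, Fech and Tfrc lie near 0 or on the other side of it.

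Tfrc, the receptor that brings transferrin-bound iron into cells, was the 1 gene of the 9 with a lower mean in YY1bKO. Its intensities were 356, 428 and 311 in YY1bKO and 558, 1355 and 550.2 in control. All YY1bKO arrays lay below all control arrays, and control replicate 2 stood far above the other 2. The log2 difference was -1.04 ± 0.37 (SE, n = 3 each; interval -1.95 to -0.14; limma adjusted p = 0.418; exact permutation p = 0.1). Without control replicate 2 it was -0.61, and with the mean of all Tfrc probe sets -0.37. The other 2 probe sets were dim, with control means of 28.1 and 18.1, and differed by -0.08 and 0.02. The 3 Affymetrix control probe sets for this transcript, with control means of 8.23 to 12.5, were not tested.

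Control replicate 2, highest for Tfrc, had the highest summed skin and mammary epithelium level, 10936 over all 12 listed genes, where YY1bKO arrays ran from 352 to 586 and the other control arrays were at 382 and 396. Proliferation genes, which dividing cells express beside a high transferrin receptor, were summed over 13 of 14 listed genes. The sums were 653, 1373 and 1328 in YY1bKO and 1392, 2184 and 2649 in control. Control replicate 3, highest in this list, was the lowest control array for Tfrc, while YY1bKO replicate 2 was the highest YY1bKO array for both. In that list 12 genes were lower and 1 higher, none past the adjusted threshold by limma, and the median log2 difference was -0.75. Unadjusted p was under 0.05 for 3 lower genes and 0 higher ones, where 8.43% of all genes were higher and 1.99% lower. B cell and lymph node genes had sums over 10 of 12 listed genes of 459 to 4835 in YY1bKO and 510 to 9509 in control. The groups overlapped, and control replicate 3 was highest. No listed marker was at 0 in any array, but the lowest intensity of the whole series was 5.4, so this does not show detection. The part of these cells in the Tfrc difference was not tested.

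**Figure D4:**
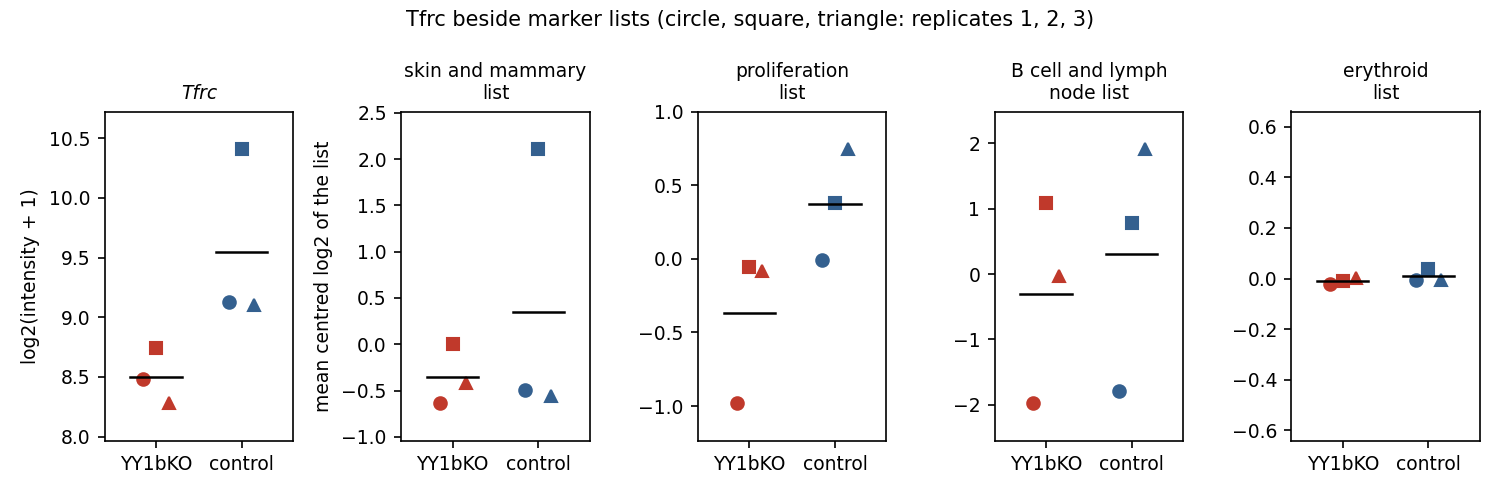
Tfrc on the log2(intensity + 1) scale (left) beside the mean centred log2 value of 4 marker lists, in YY1bKO arrays (red) and control arrays (blue), with group means as lines. Control replicate 2 is highest for Tfrc and for the skin and mammary list, and the proliferation list is higher in the control arrays. The erythroid list runs from -0.02 to 0.04, highest in control replicate 2, where Car2 stood at 1885. Of its 17 genes 5 lie below the lower quartile of intensity in all arrays, and the shared globin probe sets are not in it. Its values therefore do not show that red cell content was equal.

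Hmox1, which encodes the inducible heme oxygenase, had intensities of 113.2, 117.5 and 125.9 in YY1bKO and of 135.5, 100.3 and 93.2 in control. All 3 YY1bKO arrays lay between the lowest and the highest control array. The difference was 0.13 ± 0.16 (SE, n = 3 each; interval -0.25 to 0.52; limma adjusted p = 0.821). It was 0.29 without control replicate 1 and 0.03 without control replicate 3. Genes induced by NRF2, the factor that drives Hmox1 under oxidative stress, gave no common shift: of 9 of 11 measured, 5 were higher and 4 lower, with a median of 0.06. None passed the adjusted threshold by limma. At an unadjusted p under 0.05, 0 were higher and 0 lower, where 8.43% of all genes were higher and 1.99% lower. Gsr, glutathione reductase (0.25), Slc7a11, the cystine carrier (-0.24, below the lower quartile of intensity in all arrays), Gclc, of glutathione synthesis (-0.44), and Me1, malic enzyme (-0.39), had the smallest p of that list.

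Among the heme synthesis enzymes as a list, all 8 measured of 9 were higher, with a median log2 difference of 0.41 beside 0.00 for all genes. The 1 gene added to the 7 above was Alad, which makes porphobilinogen, with 625, 484 and 762 in YY1bKO and 449, 557 and 394 in control (0.41 ± 0.21; limma adjusted p = 0.579). Its groups overlapped. Of the mitochondrial carriers and partners of the pathway, 10 of 12 measured were higher, with a median of 0.13. Tspo, a porphyrin-binding protein of the outer mitochondrial membrane, had 5724, 4848 and 5511 in YY1bKO and 3741, 3209 and 3800 in control, a difference of 0.58 ± 0.12 (adjusted p = 0.201). Slc25a39, a mitochondrial glutathione carrier (0.36), Slc25a28, mitoferrin 2, which imports iron (0.35), and Tmem14c, a porphyrin transporter (0.16), followed. The groups did not overlap in these 4 of the 12 measured, where 11.5% of all genes did not overlap in the higher direction. The 4 were named for having the smallest p of the list. None of the genes in the 9 pathway lists passed the adjusted threshold by limma. At an unadjusted p under 0.05, 3 of this list were higher and 0 lower, where 8.43% of all genes were higher and 1.99% lower.

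Iron-sulfur clusters are the other main product of mitochondrial iron. Of 12 measured assembly genes of 19 listed, 8 were higher and 4 lower, with a median log2 difference of 0.37. By limma, 8 were higher and 0 lower at an unadjusted p under 0.05, where 8.43% of all genes were higher and 1.99% lower. Isca1, a cluster carrier, had 2399, 2302 and 2540 in YY1bKO and 2016, 1776 and 1610 in control (0.43 ± 0.11; adjusted p = 0.295). Nfs1, the desulfurase that provides sulfur, had a difference of 0.42 (0.310), and Iscu, the scaffold, one of 0.39 (0.339). Hspa9, the mitochondrial chaperone, differed by 0.54 (0.324), with 4 probe sets from -0.05 to 0.54. The 4 lower genes, Ciao1, Nubp1, Nubp2 and Ciapin1, differed by -0.20 to -0.01. Nubp1 and Ciapin1 had probe sets of both signs.

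Genes of proteins that carry or use heme were mostly higher. Of 14 measured of 16 listed, 12 were higher, with a median of 0.25. At an unadjusted p under 0.05, 3 were higher and 0 lower, where 8.43% of all genes were higher and 1.99% lower. Cyc1, cytochrome c1 of respiratory complex III, had 3846, 3660 and 3721 in YY1bKO and 2833, 3096 and 2556 in control (0.41 ± 0.10; limma adjusted p = 0.279). Suox, sulfite oxidase, differed by 0.52 (0.249), Sdhc, a heme-binding subunit of complex II, by 0.35 (0.378) and Cat, the peroxide-degrading enzyme catalase, by 0.36 (0.517). Cat had 6883 in control replicate 1, close to the 6828 to 7183 of YY1bKO, and 5107 and 4594 in the other control arrays.

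Genes of iron uptake, storage and export had no common direction, with 7 of 18 measured (22 listed) higher, 11 lower and a median of -0.08. Cp, ceruloplasmin, which oxidises iron leaving the cell, had 1517, 1674 and 1451 in YY1bKO and 1114, 914 and 1249 in control, a difference of 0.51 ± 0.14 (limma adjusted p = 0.310) with 7 probe sets from 0.29 to 0.72. Fth1, the heavy chain of the iron store ferritin, differed by 0.32 (0.454), and its groups did not overlap. Tfr2, a second transferrin receptor known mainly from liver and erythroid cells, differed by -0.58 (0.494), in the direction of Tfrc. At an unadjusted p under 0.05 the list had 2 higher (Cp and Fth1) and 1 lower (Tfrc), where 8.43% of all genes were higher and 1.99% lower. Trf and Ftl1 were not measured by a probe set of their own.

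Genes that sense iron or oxygen, or act beside these sensors, had no common direction. Of 8 measured of 9, 5 were higher and 3 lower, with a median of 0.08. Unadjusted p was under 0.05 for 1 higher and 1 lower gene, where 8.43% of all genes were higher and 1.99% lower. Hif1a, the oxygen-regulated factor that can induce Tfrc, had 2124, 1841 and 1771 in YY1bKO and 3693, 2752 and 2380 in control, a difference of -0.60 ± 0.18 (limma adjusted p = 0.339), with 4 probe sets from -0.60 to -0.18. Nfe2l2, which encodes NRF2, differed by 0.33 (0.414), Egln1, an oxygen sensor, by 0.14 (0.677) and Ireb2, iron regulatory protein 2, by -0.23 (0.717).

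For heme breakdown, binding and export, 7 of 14 measured were higher and 7 lower, with a median of 0.02. At an unadjusted p under 0.05, 3 were higher and 0 lower, where 8.43% of all genes were higher and 1.99% lower. Cd163, the macrophage receptor for hemoglobin bound to haptoglobin, had 923, 966 and 1272 in YY1bKO and 778, 636 and 571 in control, a difference of 0.67 ± 0.18 (limma adjusted p = 0.295). The 12 macrophage genes, Cd163 included, had a median of -0.04, and their sums ran from 11931 to 15046 in YY1bKO and from 10793 to 17407 in control. Abcg2, a transporter that exports porphyrins (0.31, 0.384), and Blvrb, a biliverdin reductase (0.28, 0.462), had groups that did not overlap, and Lrp1, the receptor of heme bound to hemopexin, differed by 0.44 (0.589).

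Of 13 genes listed here as possible regulators of Alas1, mainly in liver, 7 were higher and 6 lower, with a median of 0.11. Ppargc1a, the coactivator PGC-1alpha that induces Alas1 in fasted liver, was the 1 gene of these at an unadjusted p under 0.05, where 8.43% of all genes were higher. It had 140.0, 108.4 and 79.1 in YY1bKO and 74.8, 47.5 and 48.7 in control, a difference of 0.92 ± 0.27 (limma adjusted p = 0.325). Nrf1 (-0.30), Nr1d2, a heme-binding nuclear receptor of the clock (0.31), and Nr1h4, the bile acid receptor (0.15, below the lower quartile in all arrays), did not pass. Their adjusted p by limma were 0.624, 0.640 and 0.704. The NRF1 motif letters are those shown for the inner Alas1 start site, and binding there was not tested. Nrf1 had probe sets of both signs.

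**Figure D5:**
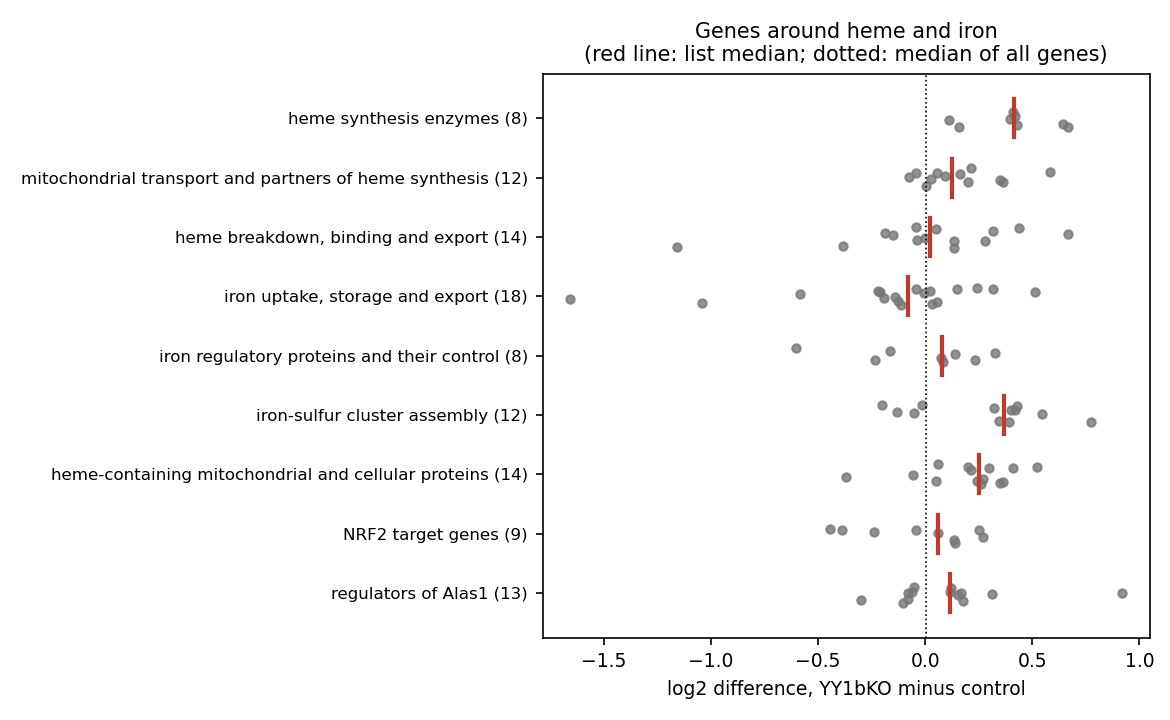
Log2 difference (YY1bKO minus control) of each measured gene in the 9 pathway lists, as grey points, with the list median in red, the number of measured genes in brackets and the median of all genes dotted. Medians run from -0.08 (iron uptake, storage and export) to 0.41 (heme synthesis enzymes).

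White adipocyte genes were also higher in the YY1bKO arrays, in 10 of 11 measured, with a median log2 difference of 0.54. Of these 6 were at an unadjusted p under 0.05, where 8.43% of all genes were, and 0 past the adjusted threshold by limma. The list ran from -0.31 in Lep, its 1 lower gene, to 1.00 in Pnpla2, and Adipoq differed by 0.12. The 9 measured genes of brown and beige adipocytes were all higher, with a median of 2.15. Of these 3 passed the adjusted threshold, where 0.0323% of all genes passed as higher. The lowest white adipocyte sum, 67513, was that of control replicate 2, and control replicate 1, at 88138, lay among the YY1bKO arrays, as it did for Alas1. The part of adipocyte content in the differences of the heme synthesis genes was not tested.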

How the data were processed

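RNA of subcutaneous fat was measured on Affymetrix mouse arrays, as the labels' protocols state. The deposited intensity values are RMA values of probe sets, per the submitters' processing notes. Their linear scale was read from the values (5.4 to 25730.1). No source used here gives the RMA version. RMA equalises the arrays' distributions and hides any shift in total RNA.

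Groups came from the titles. No 2 arrays were duplicates (Spearman correlations 0.957 to 0.994). Of 22690 probe sets, 20393 had 1 gene symbol, 691 several and 1606 none in the platform annotation. Affymetrix controls were left out. Symbols were checked against RefSeq GRCm38.p6 (20364 matched, 0 changed). The gene's brightest probe set was tested as log2(value + 1) with limma 3.58.1 in R 4.3.3, 2-sided, Benjamini-Hochberg adjusted over 12393 genes. Probe sets were also fitted singly (22626). The step was tested on simulated data.

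The members, lists and tests were chosen with earlier results of these data known. Named were all members, Yy1, Ucp1, up to 4 genes of smallest p per pathway list, adult globins, Slc4a1 and Epb42, and the 3 nearest profiles of Alas1 and Alas2. Alad was named as the other heme synthesis enzyme measured. Cidec, Pnpla2, Adipoq, Lep, Car2, Ciao1, Nubp1, Nubp2, Ciapin1 and the shared globin probe sets were named after their values were seen. Alternatives changed the normalization, pseudocount, filter, probe set rule, variance model, array weights, replicate block and arrays used.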

Additional observations from a re-analysis of the deposited data

How the results depend on the processing

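No member passed an adjusted p of 0.05 by limma in any of the 18 alternatives, and each kept its direction in every alternative that held it. The brightness filters, the variance models, the replicate block and each probe set on its own could not change a direction. They refit the same log2 values of the brightest probe sets. Without probe sets below the 50th percentile, Alas2, Cpox and Hmox1 were not tested. The count of 4 genes past the threshold in the whole table was 9 with a pseudocount of 16 and with array weights, 2 without probe sets below the 50th percentile, 11 with each probe set on its own, 12 with robust eBayes, 1 without control 2 and YY1bKO 1 together (chosen after seeing the data) and 1 to 5 with single arrays left out. The 4 members higher at an unadjusted p under 0.05 were 2 with the mean of all probe sets, 1 without control 2 and YY1bKO 1 together, and 1 to 5 with single arrays left out. They were 1, 2 and 2 without YY1bKO replicates 1, 2 and 3 and 2 without control replicate 3. Under the replicate block the Alas1 difference was 0.67 (adjusted p = 0.492) and 1 gene of the whole table passed. The labels do not say whether same-numbered arrays share more than a number. The deviations of the 3 pairs correlated at 0.61, 0.10 and 0.03, and 1 of 3 YY1bKO arrays correlated best with its own number. What the arrays numbered 1 may share was not tested. The near-zero difference of Hba-a1 was -0.00212 with array weights, -0.0269 without control 2 and YY1bKO 1 together and -0.0137 to 0.0536 with 1 array left out. That of Slc4a1 was -0.0301 without control 2 and YY1bKO 1 together and -0.0347 to 0.12 with 1 array left out. The cause of these changes was not tested. The Alas1 difference ran from 0.45 to 0.90 and that of Tfrc from -1.26 to -0.37 over all alternatives. Dim probe sets, near the lower quartile of intensity, limit what can be read from Hba-a1, Slc4a1, Slc7a11, Nr1h4 and the dim probe sets of Ppox and Tfrc.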
